A study of Homo sapiens with 6 samples.

Results

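The genes described here encode subunits of 4 groups of chromatin remodellers other than SWI/SNF: the CHD family, the ISWI complexes, the INO80, SRCAP and EP400 complexes, and the NuRD complex. The 43 genes were taken by name from 19974 protein-coding genes on chromosomes 1 to 22 and X, by complex and gene family, not by a peak value. They fall into 9 CHD genes, 9 ISWI genes, 14 genes of the INO80, SRCAP and EP400 group and 11 NuRD subunits other than the CHD ATPases. The choice of genes was made with earlier results of these data known. Accessible chromatin was recorded by ATAC-seq: the enzyme Tn5 inserts sequencing adapters wherever DNA is open. The cells were Nthy-ORI, an immortalised human line derived from normal thyroid follicular epithelium, so the whole study rests on 1 cell line. All cells spent 24 h in hormone-stripped medium. They then received the NaOH vehicle, labelled 6 h, or 10 nM T3 (triiodothyronine, the active thyroid hormone) for 6 h or for 24 h, with 2 samples per group. No 24 h vehicle was analysed here, so at 24 h hormone and time cannot be told apart. The labels leave unstated if the paired samples were grown as separate cultures.

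Remodellers use ATP to slide, space, evict or exchange nucleosomes. CHD proteins join a helicase-like motor to chromodomains, which read methylated histones. ISWI motors space nucleosomes evenly, and their partner subunits direct them to different sites. INO80, SRCAP and EP400 govern the histone variant H2A.Z at promoters, and NuRD joins a CHD motor to histone deacetylases. In thyroid hormone action these enzymes belong to the machinery that nuclear receptors and their corepressors draw on. ATAC-seq shows whether a region is accessible, not how much protein is made.

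Both samples of a group entered 1 list made by IDR (irreproducible discovery rate) comparison, and the lists differed in length and in how closely the replicates matched. There were 7103 peaks in vehicle, 12385 at 6 h and 60661 at 24 h. The median gap between replicate summits was 180 bp in vehicle, 222 bp at 6 h and 46 bp at 24 h. Read counts were not part of the lists, so depth is unknown, and absence of a peak does not show closed chromatin. With 1 list per condition, no test between conditions was possible. Of 8 thyroid follicular markers, 5 had a 24 h peak at a gene end (62.5%, beside 60.8% of all protein-coding genes): PAX8, NKX2-1, FOXE1, HHEX and TSHR. The others, TG and SLC5A5 among them, had none in any list. Of markers of other cells, 3 of 4 epithelial, 1 of 3 leukocyte, 0 of 2 endothelial and 2 of 3 fibroblast genes had one. Beside the 60.8% of all genes, none of these counts identifies a cell type.

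Remodeller genes had peaks at their ends mainly in the T3 24 h list. A gene-end peak has its summit, the mean of both replicate summits, within 1 kb of either boundary of the gene in RefSeq. In the vehicle list 1 of 43 genes had such a peak (2.33%, exact Clopper-Pearson 95% interval 0.0589 to 12.3), beside 1.34% of all protein-coding genes. At 6 h there were 6 of 43 (14.0%, interval 5.30 to 27.9), beside 10.8% of all genes. At 24 h there were 37 of 43 (86.0%, interval 72.1 to 94.7), beside 60.8% of all genes. The intervals cover counting error only. The vehicle and 6 h counts lay near the share of all genes, and the 24 h count lay above it.

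**Figure D1:**
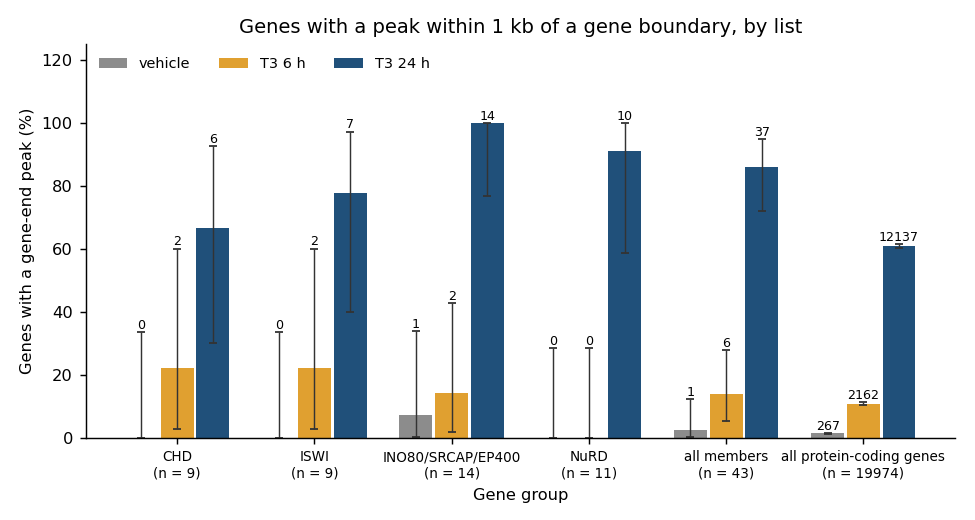
Share of genes (%) with a peak within 1 kb of a gene boundary, for the 4 remodeller groups, all 43 members and all 19974 protein-coding genes. Bars are the 3 lists, error bars are exact 95% binomial intervals, and the numbers on the bars are gene counts, such as 1, 6 and 37 of the 43 members.

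Gene length differed between the members and other genes. The members had a median length of 70925 bp, against 24170.5 bp over all protein-coding genes, and 14 and 16 of the 43 lay in the upper 2 of 5 equal length classes. At the share of each length class among all genes, 28.8 of 43 genes would have had a 24 h peak, 5.38 a 6 h peak and 0.630 a vehicle peak. Transcription was not measured here, so expressed and silent genes were not set apart. The strongest 24 h gene-end peak of the 37 members had a median signal of 21.0, beside 18.2 over the 12137 genes with such a peak. The signal is the authors' value, summed over both replicates, and its normalisation is not stated, so it is compared within 1 list only.

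The 24 h count depended on the length of the list. When the T3 lists were cut to the 7103 peaks of highest signal, 13 of 43 members had a 24 h gene-end peak, beside 16.6% of all genes, and 3 had one at 6 h, beside 6.26%. The 13 were CHD6, CHD8, BAZ1B, BAZ2B, SMARCA5, ACTR6, INO80B, YEATS4, GATAD2A, GATAD2B, HDAC2, MBD2 and RBBP4. Those at 6 h were CHD1, CHD8 and SMARCA5. The vehicle list has 7103 peaks in all, so its count stayed at 1.

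**Figure D2:**
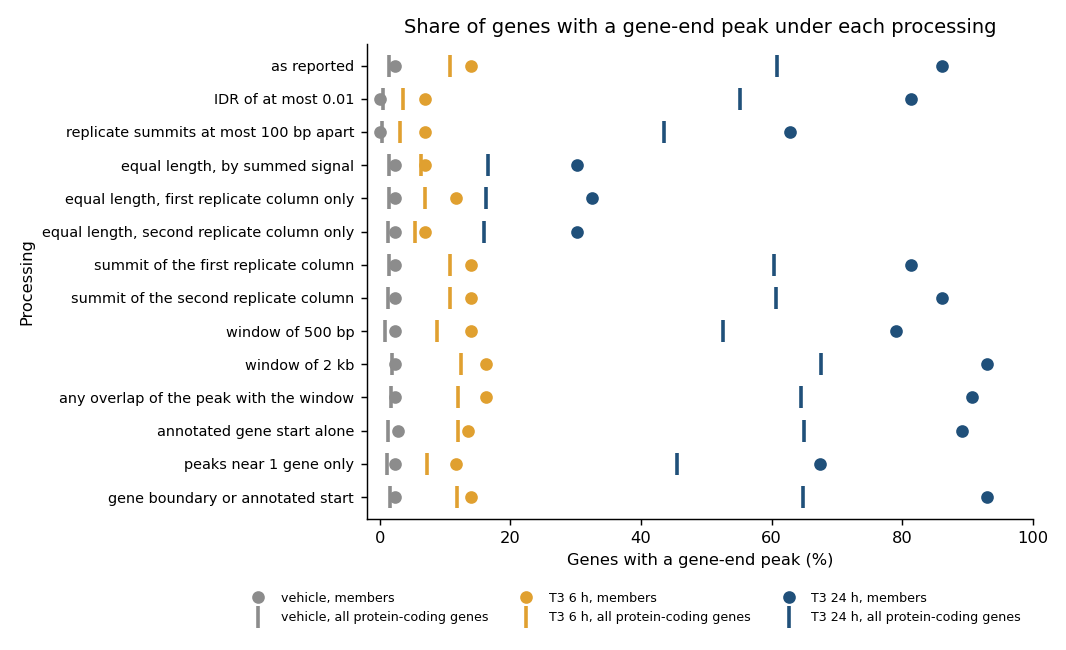
Share of genes (%) with a gene-end peak in each list under each processing, for the members (points) and for all protein-coding genes of the same setting (ticks). At 24 h the members lie above all genes in every row shown, from 13 of 43 with lists of equal length to 40 of 43 with a window of 2 kb.

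The members with a 6 h peak were CHD1 and CHD8, the ISWI genes SMARCA5 and BAZ1B, and INO80D and RUVBL1 of the INO80 group. CHD8, a chromodomain remodeller that binds beta-catenin, had the highest 6 h signal, 12.3, with 5.97 and 6.29 in the 2 replicate columns. CHD1, which works at transcribed genes, had 11.6, with 5.06 and 6.49. These peaks ranked at percentiles 83.6 and 76.7 of the 6 h list. SMARCA5, the main ISWI ATPase, had a signal of 10.5 (5.80 and 4.72). BAZ1B, its partner in the WICH complex, had 9.68 (5.13 and 4.55). INO80D, an accessory subunit of INO80, had 9.54 (3.37 and 6.17). RUVBL1, a ring-forming ATPase shared by INO80, SRCAP and EP400, had 8.88 (4.48 and 4.39) and ranked at percentile 9.02 of the list. The 6 signals lie close together, and the column ranges of neighbouring genes overlap throughout. The order of such neighbours changed between the columns, except that SMARCA5 lay above BAZ1B in each. Some genes further apart kept their order, as CHD8 lay above SMARCA5, BAZ1B, INO80D and RUVBL1 in each column. Of NuRD subunits 0 of 11 had a 6 h peak, with an exact interval of 0 to 28.5% that holds the 10.8% of all genes.

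A 6 h gene-end peak shared with 24 h, by an overlap of at least 50% of the shorter one, was present at 6 of 43 members, beside 10.2% of all genes. That is 6 of the 6 members with a 6 h peak, and 2031 of the 2162 genes with one. None of their 6 h peaks was shared with vehicle, and 10.3% of all genes had such an unshared 6 h peak. At 24 h, 31 of 43 members had a gene-end peak not shared with 6 h, beside 51.3% of all genes. Any 24 h gene-end peak was present at 2052 of those 2162 genes (94.9%), and the 6 of 6 members lie near this share. The replicate summits at 6 h lay 4 bp apart at SMARCA5, 14 bp at CHD1 and 17 bp at BAZ1B. At RUVBL1, INO80D and CHD8 they lay 218, 334 and 493 bp apart. Of 12 other ways of processing the lists, CHD1 had a 6 h peak under all 12, SMARCA5 under 11 and CHD8 under 10. BAZ1B had one under 9, INO80D under 8 and RUVBL1 under 7. A window of 2 kb, or any overlap of a peak with the window, only widens the match and cannot drop a gene. CHD8 had a second 6 h peak near its far end, with a signal of 9.23, which also lay within 1 kb of an end of SUPT16H, a subunit of the histone chaperone FACT.

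The promoters of the 5 genes with a peak at an annotated start in both T3 lists are shown, because these are the starts that both lists hold. With them stand the promoters under the strongest 24 h peak of the ISWI, INO80 and NuRD groups, BAZ2B, ACTR6 and RBBP4. The strongest of the CHD family was at CHD6, whose promoter is not shown. Sequences are from RefSeq, GRCh38.p14, and run 5′ to 3′ along the gene from 250 bases before to 50 after the start. Capitals mark matches, on either strand, to any of 8 motifs: ETS CCGGAAG, NRF1 (GCGC and TGCGC parted by 1 base of any kind), SP/KLF GGGCGG, NF-Y CCAAT, YY1 AAGATGGC, CRE TGACGTCA, AP-1 TGANTCA and the nuclear receptor half-site AGGTCA. A match is a description of the letters, not evidence of binding.
BAZ1B, chr7:73522244-73522543, minus strand: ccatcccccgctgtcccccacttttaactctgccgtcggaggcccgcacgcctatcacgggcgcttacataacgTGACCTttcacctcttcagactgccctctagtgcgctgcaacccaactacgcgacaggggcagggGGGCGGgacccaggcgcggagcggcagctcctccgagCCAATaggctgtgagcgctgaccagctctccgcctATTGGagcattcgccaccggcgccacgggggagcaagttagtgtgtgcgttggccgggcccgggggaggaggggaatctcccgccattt
CHD1, chr5:98928958-98929257, minus strand: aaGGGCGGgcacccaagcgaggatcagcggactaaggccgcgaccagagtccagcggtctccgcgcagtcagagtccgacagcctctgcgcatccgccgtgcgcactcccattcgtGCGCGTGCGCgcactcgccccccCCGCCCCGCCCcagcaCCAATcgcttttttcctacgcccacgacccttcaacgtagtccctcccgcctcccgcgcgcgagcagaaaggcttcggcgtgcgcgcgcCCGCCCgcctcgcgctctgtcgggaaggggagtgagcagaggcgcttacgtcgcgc
INO80D, chr2:206086125-206086424, minus strand: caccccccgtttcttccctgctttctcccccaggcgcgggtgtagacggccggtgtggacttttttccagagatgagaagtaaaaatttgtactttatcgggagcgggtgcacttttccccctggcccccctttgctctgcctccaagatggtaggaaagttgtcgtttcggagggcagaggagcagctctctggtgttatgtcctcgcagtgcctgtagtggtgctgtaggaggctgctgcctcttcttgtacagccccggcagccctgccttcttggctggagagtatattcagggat
RUVBL1, chr3:128153865-128154164, minus strand: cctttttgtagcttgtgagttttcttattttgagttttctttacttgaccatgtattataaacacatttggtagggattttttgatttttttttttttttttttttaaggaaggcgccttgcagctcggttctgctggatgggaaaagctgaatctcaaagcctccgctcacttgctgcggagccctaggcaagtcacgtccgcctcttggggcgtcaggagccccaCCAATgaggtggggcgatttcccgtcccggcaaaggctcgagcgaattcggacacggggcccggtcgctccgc
SMARCA5, chr4:143513452-143513751, plus strand: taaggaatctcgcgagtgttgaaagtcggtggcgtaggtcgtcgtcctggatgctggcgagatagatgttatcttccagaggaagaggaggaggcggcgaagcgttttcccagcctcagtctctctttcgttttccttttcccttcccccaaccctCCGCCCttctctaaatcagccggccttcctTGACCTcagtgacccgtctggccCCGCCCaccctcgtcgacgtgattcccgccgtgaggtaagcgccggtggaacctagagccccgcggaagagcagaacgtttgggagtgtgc
ACTR6, chr12:100200565-100200864, plus strand: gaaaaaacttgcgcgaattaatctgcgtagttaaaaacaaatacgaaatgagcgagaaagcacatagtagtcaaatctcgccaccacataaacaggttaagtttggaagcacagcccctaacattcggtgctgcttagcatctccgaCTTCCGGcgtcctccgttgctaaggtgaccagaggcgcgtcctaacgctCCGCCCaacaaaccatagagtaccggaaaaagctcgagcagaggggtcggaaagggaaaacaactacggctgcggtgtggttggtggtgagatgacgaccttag
BAZ2B, chr2:159712393-159712692, minus strand: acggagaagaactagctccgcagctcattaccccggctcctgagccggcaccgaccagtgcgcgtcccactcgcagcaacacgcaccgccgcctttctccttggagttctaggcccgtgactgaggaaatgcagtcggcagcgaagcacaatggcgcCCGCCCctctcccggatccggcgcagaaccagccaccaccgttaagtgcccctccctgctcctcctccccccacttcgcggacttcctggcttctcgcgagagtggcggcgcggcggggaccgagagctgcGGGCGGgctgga
RBBP4, chr1:32650958-32651257, plus strand: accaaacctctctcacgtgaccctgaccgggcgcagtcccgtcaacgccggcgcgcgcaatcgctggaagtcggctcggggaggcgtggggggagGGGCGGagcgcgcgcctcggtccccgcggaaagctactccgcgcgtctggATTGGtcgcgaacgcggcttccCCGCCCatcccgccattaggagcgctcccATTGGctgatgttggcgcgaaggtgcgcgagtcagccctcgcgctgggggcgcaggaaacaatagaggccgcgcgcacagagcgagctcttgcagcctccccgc

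The printed promoters differ in composition. CHD1 and RBBP4 are rich in CpG, with 44 and 42 CpG in 300 bases, while INO80D has 11 and RUVBL1 17. The 24 h peak covered all 300 bases at BAZ1B, CHD1, SMARCA5, ACTR6, BAZ2B and RBBP4, but 188 at INO80D and 129 at RUVBL1. CHD1 carries 4 matches to GGGCGG and 1 each to the NRF1 motif and CCAAT. RBBP4 carries 2 of GGGCGG and 2 of CCAAT, and BAZ1B 1 and 2. INO80D has no match to any of the 8 motifs. The half-site AGGTCA, which thyroid hormone receptor reads in pairs, was found once in SMARCA5 and once in BAZ1B among these 8 promoters.

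Over all 49 annotated promoter windows of the 37 members in the table, the half-site occurred in 3 (6.12%), beside 11.9% of 22132 windows of protein-coding genes. GGGCGG occurred in 73.5% of member windows (56.3% of all windows), CCAAT in 36.7% (34.6%), CCGGAAG in 18.4% (12.8%) and the NRF1 motif in 16.3% (7.41%). AAGATGGC was in 4 member windows (8.16%, all windows 3.54%). TGACGTCA and TGANTCA were in 0 of the 49, beside 2.26% and 6.15% of all windows. Windows with a 24 h peak within 1 kb are a closer comparison, with 43 of members and 13130 of all genes. There GGGCGG was in 74.4% of member windows (71.0% of all such windows), CCAAT in 41.9% (35.7%), CCGGAAG in 18.6% (18.9%) and the NRF1 motif in 16.3% (11.2%). AAGATGGC was in 9.30% (5.22%), the half-site in 4.65% (9.45%), and TGACGTCA and TGANTCA in 0 (3.09% and 4.62%). The median GC content was 66.0% in the 49 member windows, 62.3% in all windows and 65.7% in those with a 24 h peak. Overlapping matches of different motifs were counted for each.

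The CHD family had 24 h gene-end peaks at 6 of 9 genes (66.7%, exact interval 29.9 to 92.5), near the 60.8% of all genes, and CHD6 and CHD8 stood apart from the other 4. CHD6, a large chromodomain remodeller, had a signal of 41.3, with 20.7 and 20.6 in the 2 columns, at chr20:41618086-41618966 (hg38). CHD8 had 39.9, with 17.7 and 22.2, at chr14:21455732-21456571. Both ranked above percentile 99 of the 24 h list, at 99.7 and 99.6, and their columns overlap each other. CHD1 followed with 21.2 (10.9 and 10.3), below both columns of CHD6 and CHD8. CHD7, mutated in CHARGE syndrome, had 17.6 (7.32 and 10.3). CHD9 and CHD2 had the lowest signals of the family, 15.1 (5.94 and 9.14) and 14.6 (6.58 and 8.04), which their columns do not separate.

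CHD3, CHD4 and CHD5, the NuRD motors, were the 3 CHD genes without a 24 h gene-end peak. CHD4, the main NuRD ATPase of most cells, had no peak at its boundaries or its annotated start in any list. Its nearest 24 h summit lay 1695.5 bp beyond the 3′ boundary, with a signal of 17.8, and 38064.5 bp from the start. CHD3 had a weak 24 h peak at its annotated start, 4518.5 bp inside the gene boundary, with a signal of 9.56 (5.58 and 3.98) at percentile 22.5. A stronger one of 12.9 lay 1008 bp from that start, just outside the 1 kb limit. CHD5, which acts mainly in neurons, had 1 peak inside the gene, with a signal of 16.7 and unequal columns of 11.3 and 5.47, and its nearest gene-end summit was 3860 bp away.

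**Figure D3:**
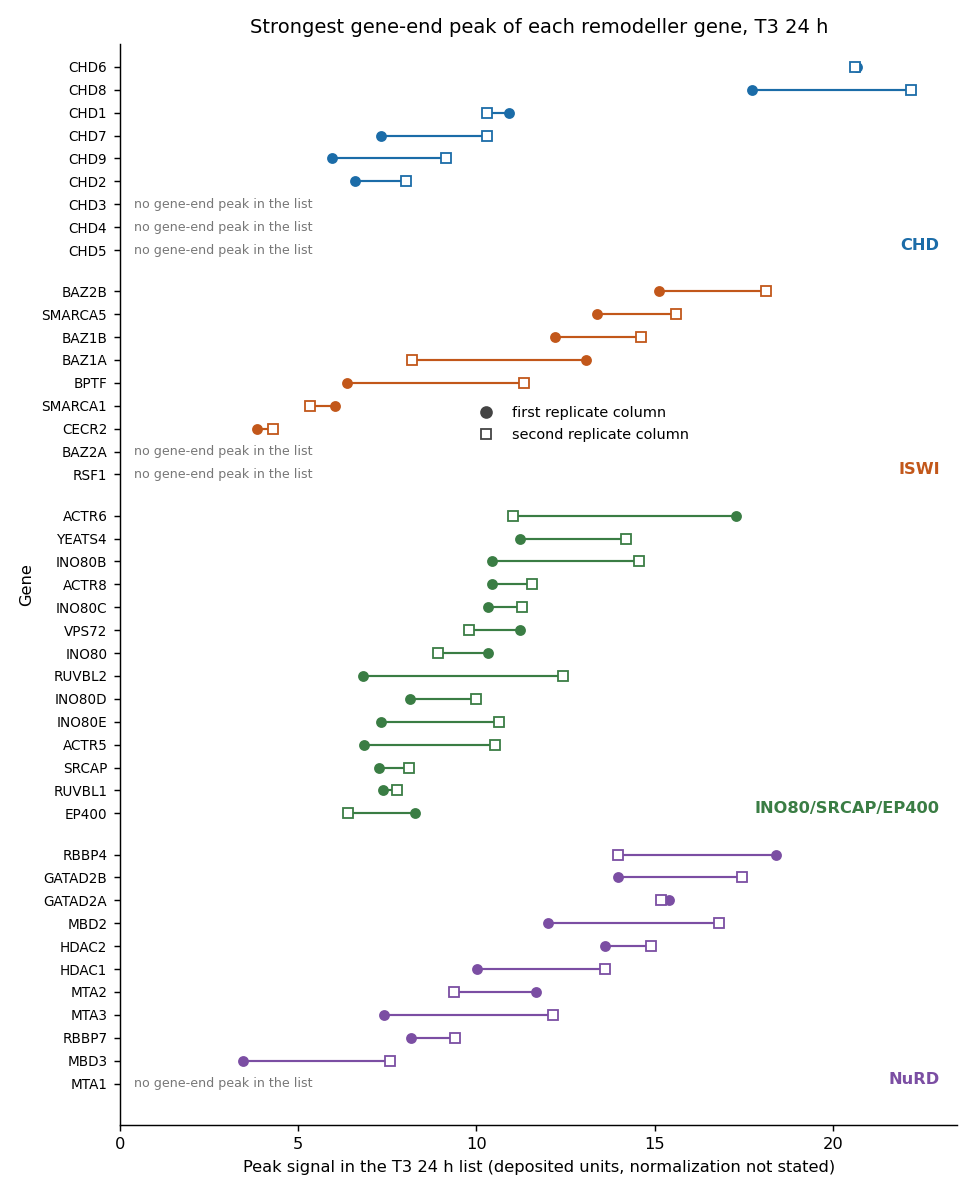
Signal of the strongest gene-end peak of each member in the T3 24 h list, in the first replicate column (filled circles) and the second (open squares), by group and in falling order of the summed signal. CHD6 and CHD8 have the highest sums, 41.3 and 39.9, and 6 genes have no gene-end peak in the list.

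The ISWI genes had 24 h gene-end peaks at 7 of 9 genes (77.8%), and the exact interval, 39.99 to 97.2, holds the 60.8% of all genes. BAZ2B, a bromodomain partner of the ISWI motors, had the highest signal, 33.3 (15.1 and 18.1), at chr2:159711988-159712891, with an end of MARCHF7 within 1 kb. SMARCA5 had 29.0 (13.4 and 15.6) at chr4:143513085-143514387, and BAZ1B had 26.8 (12.2 and 14.6) at chr7:73521680-73522870. In each column BAZ2B stood above SMARCA5 and SMARCA5 above BAZ1B. The column ranges of neighbours overlap, and the order was not tested. BAZ1A, the partner of SMARCA5 in ACF, had 21.3 (13.1 and 8.18), with replicate summits 1581 bp apart in a peak of 2085 bp. BPTF, the reader subunit of NURF, had 17.7 (6.38 and 11.3). SMARCA1, the other ISWI ATPase, had 11.4 (6.03 and 5.33), and both its columns lie below those of SMARCA5. CECR2 had the weakest peak of all members counted by their strongest, 8.15 (3.85 and 4.30), and it lay at the 3′ end of the gene, not at its start.

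RSF1 and BAZ2A had no peak at a gene boundary, but each had one at an annotated start inside it. RSF1, the partner of SMARCA5 in the RSF complex, has its annotated start far inside the boundary. There, 51336 bp from the boundary, the 24 h list held a peak of 26.3 (9.82 and 16.4) at chr11:77820273-77821395, with replicate summits 0 bp apart. An end of AAMDC lay within 1 kb of the same summit. BAZ2A, the NoRC subunit that silences ribosomal genes, had a 24 h peak of 15.1 (7.27 and 7.86) at chr12:56636099-56637224, 721.5 bp from an annotated start. With gene boundaries or annotated starts, a choice added after the data were seen, 9 of 9 ISWI genes and 40 of 43 members had a 24 h peak, beside 64.8% of all genes. The same choice gave 6 of 43 at 6 h, beside 11.8%, and 1 of 43 in vehicle, beside 1.5%. The 3 members without a 24 h peak by this choice were CHD4, CHD5 and MTA1. For CHD5 no annotated start was available, so only its boundaries were matched.

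In the INO80, SRCAP and EP400 group all 14 genes had a 24 h gene-end peak (exact interval 76.8 to 100%, all genes 60.8%), with strongest signals between 14.7 and 28.3. The count stayed at 14 with an IDR of at most 0.01 (55.1% of all genes). It was 12 with a window of 500 bp (52.6%). It was 11 with summits at most 100 bp apart (43.5%) and 10 with peaks near 1 gene only (45.5%). With lists of equal length by summed signal it was 3 (16.6%). ACTR6, the actin-related subunit of SRCAP, had 28.3 (17.3 and 11.0) at chr12:100199310-100201057, with replicate summits 1276 bp apart. YEATS4, an acetyl-lysine reader of SRCAP and EP400, had 25.4 (11.2 and 14.2). INO80B had 25.0 (10.5 and 14.6), but that peak lay at its 3′ end and within 1 kb of WBP1, while the peak at its start had 13.2 (6.93 and 6.25). ACTR8 and ACTR5, actin-related subunits of INO80, had 21.997 (10.4 and 11.6) and 17.4 (6.84 and 10.5). The order of ACTR6, YEATS4 and INO80B changed between the columns. ACTR8 lay below YEATS4 and INO80B in each, though only narrowly below INO80B in the first. The column ranges of these 4 genes overlap, while both columns of ACTR5 lie below those of ACTR6 and YEATS4.

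The motor ATPases INO80, SRCAP and EP400 were not among the 4 strongest of the group. INO80 had 19.3 (10.3 and 8.94) at chr15:41115680-41116836. EP400 had the lowest signal of the group, 14.7 (8.27 and 6.40). SRCAP was counted only through peaks at its 3′ end, of 15.4 (7.26 and 8.10) and 11.7 (5.17 and 6.48), both within 1 kb of an end of TMEM265, and had no peak at its annotated start in any list. RUVBL2, the partner of RUVBL1, had 19.3 (6.83 and 12.4) in a region that also holds an end of GYS1, a glycogen synthase. INO80E had 18.0 (7.33 and 10.6), with an end of HIRIP3 in the same window. VPS72, the H2A.Z-binding subunit of SRCAP, INO80C and INO80D had 21.0, 21.6 and 18.1.

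RUVBL1 has 2 annotated starts, and the lists differed at them. The start at the gene boundary, which also lies within 1 kb of EEFSEC, had peaks in both T3 lists, 8.88 at 6 h and 15.2 (7.37 and 7.78) at 24 h. The inner start had a 24 h peak, 30006 bp inside the boundary, of 30.2 (15.17 and 14.9998) at chr3:128123562-128124305 and none at 6 h or in vehicle. In the 24 h list the inner start thus had the higher value in both columns. BAZ2B, CHD9 and GATAD2A also had 24 h peaks at more than 1 annotated start. At BAZ2B the outer start had 33.3 and the inner start 18.6 (9.21 and 9.38). At CHD9 the outer start had 15.1, and starts further inside had 27.9 (14.0 and 13.9) and 14.1 (6.91 and 7.22). GATAD2A had 30.6 at the outer and 19.7 (8.73 and 10.9) at the inner start. CHD8 had a peak of 30.4 (14.8 and 15.6) at its annotated start, beside the one of 39.9 at its 5′ boundary.

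NuRD subunits had 24 h gene-end peaks at 10 of 11 genes (90.9%, exact interval 58.7 to 99.8, all genes 60.8%), with a median of 26.1 for the strongest peak. RBBP4, a histone-binding chaperone, led with 32.4 (18.4 and 14.0) at chr1:32650313-32651633, with replicate summits 543 bp apart and an end of ZBTB8OS in the window. GATAD2B and GATAD2A, which bridge the deacetylase and remodelling parts of NuRD, had 31.4 (14.0 and 17.4) and 30.6 (15.4 and 15.2). MBD2, which binds methylated DNA, had 28.8 (12.02 and 16.8), and the deacetylases HDAC2 and HDAC1 had 28.5 (13.6 and 14.9) and 23.7 (10.0 and 13.6). The column ranges of neighbours overlap, and their order changed between the columns, except that HDAC1 lay below HDAC2 in each. Both columns of HDAC1 lie below those of RBBP4. RBBP7, the paralogue of RBBP4, had 17.6 (8.16 and 9.40), with both columns below those of RBBP4. MBD3, which defines a NuRD form separate from that of MBD2, had the lowest, 11.0 (3.46 and 7.57), with both columns below those of MBD2.

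The scaffold genes of NuRD differed. MTA2 had 21.0 (11.7 and 9.36) and MTA3 19.6 (7.42 and 12.2), and their windows also held ends of EML3 and KCNG3. MTA1 lacked a gene-end peak in all 3 lists. Inside the gene stood 3 weak 24 h peaks of 8.08 to 9.35, the nearest to a boundary 5248.5 bp away. At 6 h MTA1 had a peak inside the gene of 13.3 (5.54 and 7.71), at percentile 89.6 of that list, with replicate summits 406 bp apart. Across all members, 9 had a 24 h gene-end peak that also lay within 1 kb of an end of another protein-coding gene. The gene such a peak belongs to cannot be told apart, and the same count over all genes was not taken. With peaks near 1 gene only, 29 of 43 members had a 24 h peak, beside 45.5% of all genes.

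YEATS4 was the 1 member with a vehicle peak. In vehicle its signal was 9.02, with 3.93 and 5.09 in the 2 columns, at percentile 23.03 of that list and with replicate summits 229 bp apart. It lay at chr12:69359490-69360530, 12.5 bp from the annotated start. It was shared with 24 h, as for 0.996% of all genes, and 0 of 43 members had a vehicle peak shared with 6 h, beside 0.486%. The nearest 6 h summit lay 43304.5 bp from a boundary of YEATS4. With an IDR of at most 0.01, or with replicate summits at most 100 bp apart, the vehicle peak was absent. The vehicle count was then 0 of 43, beside 0.461% and 0.32% of all genes. In all, 36 of 43 members had a 24 h gene-end peak that was not shared with vehicle, beside 59.8% of all genes.

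Peaks were also matched to annotated starts. Of 37 members with an annotated start in the promoter table, 33 had a 24 h peak within 1 kb of one, beside 64.9% of the 15812 genes in the table. At 6 h there were 5 of 37, beside 12%, and in vehicle 1 of 37, beside 1.3%. CHD4, CECR2, SRCAP and MTA1 were the 4 in the table without a 24 h start peak. The 39 start peaks of the 24 h list had a median distance of 138.5 bp from the start, 28 lay within 250 bp, and 30 lay upstream and 9 downstream. Of the 40 gene-end peaks, 31 were nearest the 5′ boundary and 4 the 3′ boundary, and 5 belonged to genes whose direction the table does not give. These positions were not counted over all genes, so they are not read as a trait of the members.

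**Figure D4:**
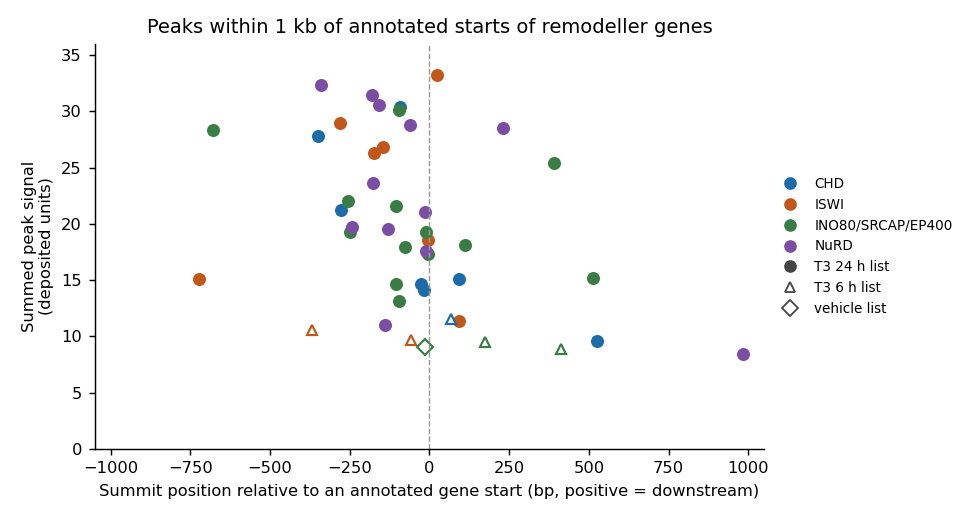
Position of peak summits relative to the nearest annotated start of a member (bp, positive downstream) against the summed signal in deposited units. Filled circles are the 39 peaks of the T3 24 h list, open triangles the 5 of the 6 h list and the diamond the 1 vehicle peak; signals are not comparable between lists.

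The replicates of the 24 h peaks were not equally close at all members. The second column was higher at 28 of 40 peaks, as it was for 64.7% of all 24 h peaks, and its ratio to the first ran from 0.626 to 2.19. The summits lay within 100 bp of each other at 30 of 40 peaks, near the 70.5% of all 24 h peaks. The other 10 were at CHD1, BAZ1A, BPTF, SMARCA1, ACTR6, VPS72, INO80D, RBBP4, HDAC2 and MTA3, up to the 1581 bp of BAZ1A. With summits at most 100 bp apart, 27 of 43 members had a 24 h gene-end peak (43.5% of all genes), and 3 a 6 h peak (3.14%), at CHD1, SMARCA5 and BAZ1B.

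Inside the genes, more than 1 kb from both boundaries, the 24 h list held 70 peaks in 28 members, the 6 h list 7 in 6 and the vehicle list 5 in 4. A peak inside the gene was thus present at 65.1% of members at 24 h, beside 45.2% of all protein-coding genes longer than 2 kb. At 6 h the shares were 14.0% and 14%, and in vehicle 9.30% and 7.41%. Over the pooled length of the 43 genes, 3.94 Mb, this was 1.78 peaks per 100 kb at 24 h, against 1.91 over all these genes. At 6 h it was 0.178 against 0.308, and in vehicle 0.127 against 0.137. At 24 h the pooled rate of the members was thus slightly below that of all genes. The median per gene was 1.26 for members and 0 per 100 kb for all genes. Gene length was not matched in these shares and medians, with a median of 70925 bp for members and 24170.5 bp for all protein-coding genes. They therefore do not show denser peaks in the members. Of the 70 peaks, 9 lay at an annotated inner start.

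CHD6 had the most 24 h peaks inside the gene, 7, followed by EP400 with 6 and CECR2 and GATAD2A with 5 each. CHD7, CHD9, RUVBL1 and BAZ2B had 4 each. The strongest was in YEATS4, 39.1 (16.8 and 22.3) at chr12:69405505-69405942, 45921 bp from the 5′ boundary, and exceeded the 25.4 at the gene's start. In CHD2 a peak of 32.2 (13.6 and 18.5) at chr15:92904152-92904608, 4016.5 bp inside the gene, exceeded the 14.6 at the start, with both columns higher. Of the 7 peaks in 6 h gene bodies, CHD6 held 2 and CHD8, BAZ2A, BAZ2B, INO80D and MTA1 1 each. The vehicle peaks inside genes were 2 in RUVBL1 and 1 each in EP400, HDAC1 and MTA3, with signals of 8.74 to 11.7.

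**Figure D5:**
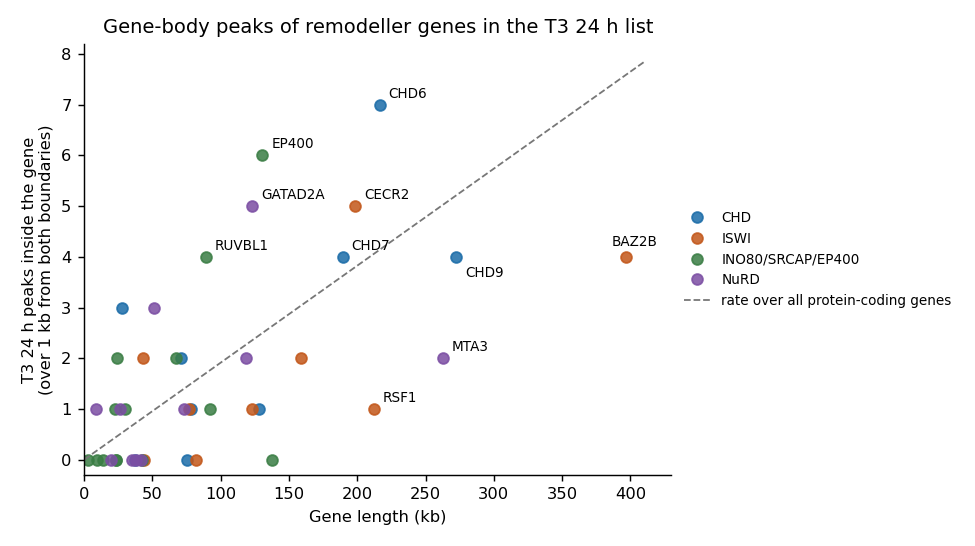
Number of T3 24 h peaks inside each member gene, over 1 kb from both boundaries, against gene length in kb, coloured by group. The dashed line is the rate over all protein-coding genes, 1.91 per 100 kb; CHD6 with 7 peaks and EP400 with 6 stand above it, and BAZ2B with 4 stands below.

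A list of 29 related subunit and partner genes, taken by name, was also matched. Not all of them belong to the 4 groups, ATRX, HELLS, SMARCAD1 and CHD1L among them. A gene-end peak was present at 27 of them at 24 h (93.1%, all genes 60.8%), at 8 at 6 h (27.6%, all genes 10.8%) and at 0 in vehicle (all genes 1.34%). Highest at 24 h stood ACTL6A, an actin-related subunit of INO80 and EP400, with 33.5 (14.3 and 19.1), EPC2 of the EP400 complex with 32.2 (15.8 and 16.3), and UCHL5, the deubiquitinase of INO80, with 31.5 (15.3 and 16.2). At 6 h the genes were UCHL5, ACTL6A, CHD1L, BRD8, MRGBP, H2AZ2, SMARCAD1 and EPC2, with UCHL5 highest at 14.5 (5.27 and 9.24). MRGBP and CDK2AP1 were the 2 without a 24 h peak. Among 28 SWI/SNF subunit genes, 22 had a 24 h peak (78.6%), with a median of 16.5 for the strongest, and 4 had one at 6 h (14.3%) and 0 in vehicle, beside the same shares of all genes. ACTL6A belongs to both lists. The difference between the lists was not tested.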

How the data were processed

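ATAC-seq peak lists of 3 groups of 2 samples were analysed. Bowtie2, MACS2, Trim Galore, DiffBind, CASAVA 1.7 and build hg38 are named, per the submitters' processing notes. Settings and any Tn5 shift, duplicate or blacklist step were not given in the sources used here. Each deposited list has 20 columns in the layout of IDR output and was made from both replicates of a group. The deposited signal is the sum of the 2 replicate signals, with normalisation not stated, and its columns carry no replicate name. The deposited −log10 IDR gives an IDR of at most 0.05 for every peak. Depth is unknown, so precision per sample cannot be given.

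Gene boundaries and annotated starts came from RefSeq tables of GRCh38.p14, and 37 of 43 members had a start. A gene boundary can lie far from the annotated start, so both were used. A peak counted as shared between lists if 50% or more of the shorter one was covered. The analysis ran in Python 3.11.15 with pandas 2.3.3, scipy 1.17.1, matplotlib 3.10.9 and numpy 2.4.6. The matching of peaks to gene ends was tested on simulated peaks, and the overlap rule on peaks drawn from the lists. Members and lists were chosen with earlier results of these data known. Named genes were, by rule, those with a vehicle or 6 h peak, those with no 24 h gene-end peak, the 4 strongest and the weakest of each group, those sharing a peak with a neighbour, and the 5 with most peaks in the body (8 with ties). Others were named after their values were seen. A gene counted in a list is not reported by name here.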

Additional observations from a re-analysis of the deposited data

How the results depend on the processing

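The 12 other settings chosen at the start, and gene boundary or annotated start, chosen after seeing the data, left the order of the lists (24 h, then 6 h, then vehicle) in every case run. With an IDR of at most 0.01, members with a gene-end peak were 0 in vehicle, 3 at 6 h and 35 at 24 h. The shares of all genes were 0.461%, 3.59% and 55.1%. With replicate summits at most 100 bp apart the counts were 0, 3 and 27, beside 0.32%, 3.14% and 43.5% of all genes. With lists of equal length by summed signal they were 3 at 6 h and 13 at 24 h, beside 6.26% and 16.6%. Ranking or placing the peaks with 1 replicate column only gave 3 to 6 members at 6 h, beside 5.37 to 10.8%. It gave 13 to 37 at 24 h, beside 16 to 60.7%, and 1 in vehicle, beside 1.3 to 1.37%. The peaks used had all passed the comparison of both replicates, so the settings cannot show what 1 replicate alone would give. In the shorter lists fewer peaks were counted by construction. The other settings stayed within 1.5 times the reported counts. Changing the overlap rule left the 36, 6 and 6 members with unshared or shared peaks as they were. No paired analysis was possible because the replicate columns carry no number and no test between groups was run. Depth is unknown, so absence from a list sets no limit on accessibility.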
